A study of Bos taurus with 23 samples.

Results

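The immortalized bovine line was compared with itself after 165 and after 21 days in culture. These 14 of the 23 libraries of the series were chosen by the cell line and the days in culture in their labels, 5 at 165 days and 9 at 21 days. The cells, labelled mesenchymal stem cells, came from the umbilical cord of cattle of the Holstein breed. A plasmid that encodes the SV40 large T antigen had been introduced transiently to immortalize them, and the 14 libraries share a single line made in this way from primary cells called WJ. The cells at both times carried the same treatment label, immortalized, and differed in the days given. No untreated or mock-transfected culture of equal age was labelled, and the 9 other libraries were primary cells without the plasmid, at 12 days (n = 3) and 50 days (n = 6). Names of 5 of these held the tag WJ (2 at 12 days and 3 at 50 days) and names of the other 4 the tag BUC (1 and 3). Library names held the tag 2D in all 5 libraries at 165 days, AM in 5 libraries at 21 days and FBS in 4. What these tags stand for is not given in the sources used here, and because 2D occurs at 165 days alone, days in culture and that tag cannot be told apart. The labels do not say which libraries came from separate cultures, so p-values reflect the scatter among these libraries, part of which may be technical.

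Cells of this kind are adherent, stromal, make extracellular matrix and can form bone, cartilage and fat cells. Primary cultures of such cells stop dividing after a limited number of passages, a state called replicative senescence. The SV40 large T antigen binds p53 and the retinoblastoma protein, which normally hold the cell cycle back, and cells that express it can go on dividing past that limit.

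Expression was measured by bulk MARS-Seq, in which the 3′ ends of poly(A) RNA are tagged and sequenced, and given as read counts per gene. A level is given as CPM, the counts of a gene scaled to the depth of its library. Total counts were 3753231 to 13540302 at 165 days and 4141228 to 11382368 at 21 days. Genes carried Ensembl numbers, and 0 of the 16094 could be matched to a symbol, so neither markers of mesenchymal cells nor those of other cell types could be checked, and gene groups are described by direction, size and level of expression. The plasmid's own transcript has no row among the bovine genes. In bulk samples fewer cells of a kind and less RNA per cell cannot be told apart.

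The libraries of the line stood apart by time, and within each time they divided further. On principal components of the 14 libraries, the first component held 54.1% of the variance and ran from 45.9 to 79.9 at 165 days and from -52.5 to -5.91 at 21 days. The second component held 17.8% and divided the 21-day libraries. Replicates 4, 5, 7 and 9 lay between -44.2 and -37.5, and replicates 1, 2, 3, 6 and 8 between 18.1 and 30.7. The tags AM and FBS both occurred on each side. The third component, with 10.1%, divided the 165-day libraries, with replicates 1 and 2 at 28.0 and 41.5 and replicates 3, 4 and 5 between -32.0 and -30.5. What these divisions stand for is not given in the labels.

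**Figure D1:**
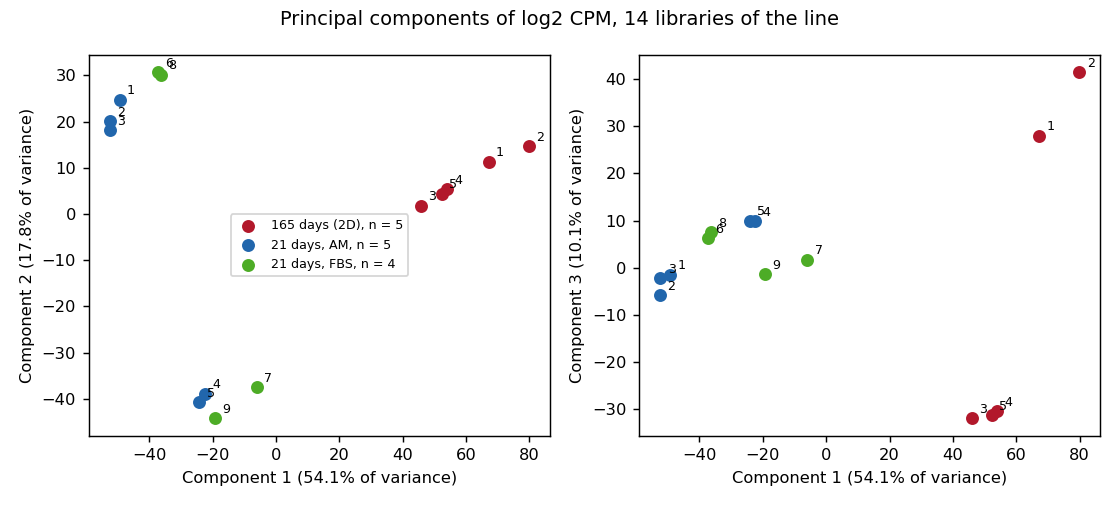
Principal components of log2 CPM in the 14 libraries of the immortalized line, component 1 against component 2 (left) and against component 3 (right). Each point is 1 library with its replicate number, and colours give the time and the tag in its name. Component 1 runs from 45.9 to 79.9 at 165 days and from -52.5 to -5.91 at 21 days, component 2 divides the 21-day libraries and component 3 the 165-day ones.

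Distances in the make-up of the transcript pool, which need no scaling factor, were then computed. Every library was thinned to 3753231 counts, and the share of counts that lies in other genes was computed for each pair (0% for identical libraries). Clustering by rank correlation, run within each tag and cut into 2 sets a tag, gave replicates 1 and 2 against 3, 4 and 5 at 165 days, and, at 21 days, replicates 1, 2 and 3, replicates 4 and 5, replicates 6 and 8, and replicates 7 and 9. Within a set this share was 3.52% to 8.79% over 10 pairs of libraries. Between the 2 sets at 165 days it was 11.2% to 14.2%, and between the sets of a tag at 21 days 11.9% to 15.6%. Across the tags at 21 days it was 7.35% to 16.4%, with a median of 11.6% over 20 pairs, and the range within sets overlapped it. Replicates 1, 2 and 3 (AM) lay 7.35% to 8.92% from replicates 6 and 8 (FBS), about as close as replicates 7 and 9 lay to each other (8.79%). Replicates 4 and 5 (AM) lay 9.66% to 10.5% from replicates 7 and 9 (FBS). Over all pairs at 21 days it was 4.02% to 16.4%. Between a library at 165 days and a library at 21 days it was 16.3% to 26.1%, with a median of 20.9% over 45 pairs. The distance between the times therefore exceeded the median distance within 21 days (12.1%) and within 165 days (11.2%), but its lowest value was no larger than the highest within 21 days. Replicate 7 at 21 days was the library of its group closest to the later time, with a median distance of 17.9%.

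**Figure D2:**
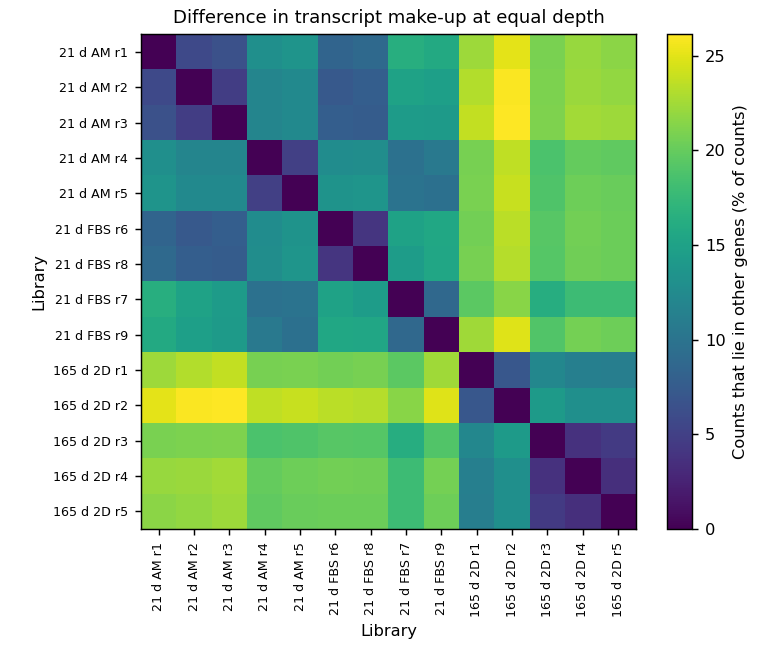
Share of counts that lies in other genes for each pair of the 14 libraries at 3753231 counts each, as a heat map with libraries on both axes (d, days; r, replicate) and colour in percent of counts. Dark blocks along the diagonal are the 6 sets found within tags (3.52% to 8.79%), replicates 1, 2 and 3 at 21 days lie nearly as close to replicates 6 and 8 (7.35% to 8.92%), and the bright block is 165 against 21 days (16.3% to 26.1%).

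The main comparison asked which genes differed in level between the 2 times. At 165 days 3033 genes were higher and 3371 were lower (edgeR quasi-likelihood test on the 14 libraries, Benjamini-Hochberg adjusted p under 0.05). These were 28.2% and 31.4% of the 10744 genes tested, 59.6% together. Genes that rose did so by a median of 0.76 on the log2 scale, and those that fell had a median of -1.002. A 2-fold change or more was called for 873 genes that rose and 1689 that fell. A 4-fold change or more was called for 139 and 235, which are 1.29% and 2.19% of genes tested, and an 8-fold change or more for 28 and 43, 0.261% and 0.4%. Directions are relative to TMM scaling. With library totals alone the median of all genes was -0.33 in place of -0.04, 27.8% of called genes were higher in place of 47.4%, and 1792 of the 3033 rising genes kept their call, while all 3371 falling genes did.

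Most calls were made again without the libraries that stood apart, and no more than 2 genes turned direction in any such fit. Each such fit shares libraries with the full fit, so agreement in direction is in part built in. Without replicates 1 and 2 at 165 days, 2526 of the rising genes and 2813 of the falling genes were called again in the same direction, and without replicates 3, 4 and 5 these numbers were 2167 and 2576. Without replicates 4, 5, 7 and 9 at 21 days they were 2795 and 2933, and without replicates 1, 2, 3, 6 and 8 they were 2583 and 2598. A core of 1806 rising and 2046 falling genes was called in the same direction in each of these 4 fits, 59.5% and 60.7% of the original calls. That core held 101 of the 139 genes that rose and 164 of the 235 that fell at least 4-fold. When the counts of each of the 6 sets were summed, so that 2 sets at 165 days were set against 4 at 21 days, 1454 genes were higher and 1498 lower, 24.2% of the 12198 genes tested. In that fit 1403 of the rising and 1472 of the falling genes kept their call, 46.3% and 43.7% of the original calls, and none turned. These 4 fits, apart from the one without replicates 1 and 2, and the summed sets were added after the data were seen, as were the counts of genes without overlap and the 3 library measures and their tests given further on.

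The tags at 21 days gave each its own comparison with the same 5 libraries at 165 days. Against the 5 AM libraries 3082 genes were higher and 3126 lower at 165 days, 59.3% of those tested. Against the 4 FBS libraries 2421 were higher and 2463 lower, 45.4%. Since both comparisons share the 165-day libraries and differ in the number of libraries, the difference between these counts was not tested.

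**Figure D3:**
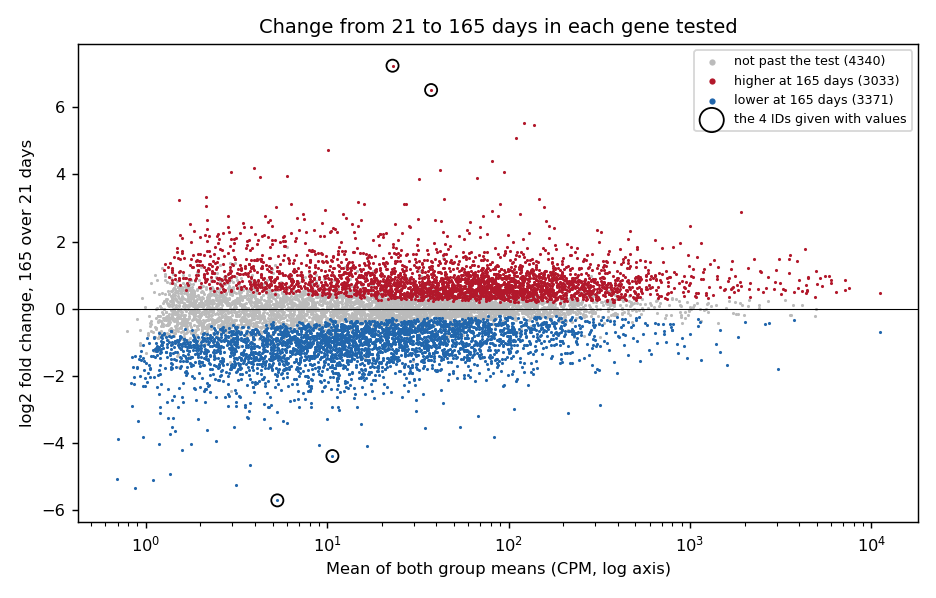
Each point is 1 of the 10744 genes tested. The horizontal axis is the mean of the 2 group means in CPM (log axis) and the vertical axis is the log2 fold change of 165 over 21 days; the 3033 genes that rose are red, the 3371 that fell are blue, and circles mark the 4 IDs described with their values. Red points gather on the right, at high level, and blue points on the left.

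Many differences left no overlap between the groups. The lowest 165-day library exceeded the highest 21-day library in 1769 genes (16.5% of genes tested), and the highest 165-day library stayed under the lowest 21-day library in 1859 (17.3%). Among the called genes this held for 58.3% of those that rose and 55.1% of those that fell. The gap between the nearest libraries of the groups was at least 2-fold in 83 higher and 91 lower genes, at least 4-fold in 6 and 2, and at least 8-fold in 1 higher gene and 0 lower ones. Of the genes that rose at least 8-fold, 26 of 28 did not overlap, and of those that fell at least 8-fold, 21 of 43 did not. The filter on low counts asked for a minimal level in at least 5 libraries, the size of the late group. A gene present at 165 days alone had to reach it in all 5 late libraries. One present at 21 days alone could pass with any 5 of 9. The 2 shares, and the numbers of large rises and falls, therefore depend in part on the filter.

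Among the genes with a mean of 10 CPM or more in the higher group, ENSBTAG00000054278 had the largest fitted rise. At 165 days it stood at 103, 112, 3.85, 4.18 and 4.97 CPM in replicates 1 to 5, with 687, 359, 48, 50 and 42 counts. At 21 days it ranged from 0 to 0.719 CPM with a median of 0.233 CPM and held 18 counts in 9 libraries together. The groups did not overlap, and replicates 1 and 2 at 165 days were far above the other 3. The means were 45.6 ± 56.6 CPM (SD, n = 5) and 0.276 ± 0.265 CPM (SD, n = 9), and the log2 fold change was 7.24 ± 0.96 (SE, edgeR adjusted p = 1.3e-05). Without replicates 1 and 2 it was 3.88 ± 0.49 (SE, edgeR adjusted p = 3.09e-05).

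The second rise showed the opposite order within the late line. ENSBTAG00000008182 stood at 8.70, 12.8, 98.5, 118 and 132 CPM in replicates 1 to 5 at 165 days. At 21 days it ranged from 0.351 to 1.23 CPM with a median of 0.692 CPM. Again the groups did not overlap, but here replicates 3, 4 and 5 were the high ones. The means were 74.0 ± 59.0 CPM (SD, n = 5) and 0.795 ± 0.306 CPM (SD, n = 9), and the log2 fold change was 6.51 ± 0.58 (SE, edgeR adjusted p = 4.24e-07). It was 7.15 without replicates 1 and 2 and 3.71 without replicates 3, 4 and 5. Both rising genes thus rose in each set of late libraries, by amounts that differed between the sets.

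Of the falling genes, ENSBTAG00000001000 had the largest fitted fall. Its levels at 165 days were 0.15, 0, 0.321, 0.167 and 0.118 CPM in replicates 1 to 5, from 8 counts in all. At 21 days it ranged from 1.94 to 26.5 CPM with a median of 3.64 CPM. Replicates 1, 2 and 3, all tagged AM, stood at 24.3 to 26.5 CPM, replicates 4 and 5, also tagged AM, at 2.45 and 2.05 CPM, and the 4 FBS libraries at 1.94 to 4.26 CPM. The means were 0.151 ± 0.115 CPM (SD, n = 5) and 10.5 ± 11.4 CPM (SD, n = 9), and the log2 fold change was -5.70 ± 1.07 (SE, edgeR adjusted p = 0.000286). Without replicates 1, 2, 3, 6 and 8 at 21 days it fell by 3.97 (edgeR adjusted p = 3.51e-05).

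ENSBTAG00000035147 was the next. Its levels at 165 days were 1.95, 1.87, 0.642, 0.251 and 0.828 CPM in replicates 1 to 5. At 21 days replicates 1, 2, 3, 6 and 8 stood at 30.9 to 33.8 CPM, replicates 4 and 5 at 9.06 and 7.64 CPM, and replicates 7 and 9 at 2.71 and 2.43 CPM. The last pair of libraries came close to the late line without overlapping it. The means were 1.11 ± 0.762 CPM (SD, n = 5) and 20.3 ± 14.2 CPM (SD, n = 9), and the log2 fold change was -4.38 ± 0.81 (SE, edgeR adjusted p = 0.00024). Without replicates 1, 2, 3, 6 and 8 at 21 days it fell by 2.46 (edgeR adjusted p = 0.00352), and without replicates 4, 5, 7 and 9 it fell by 5.09.

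**Figure D4:**
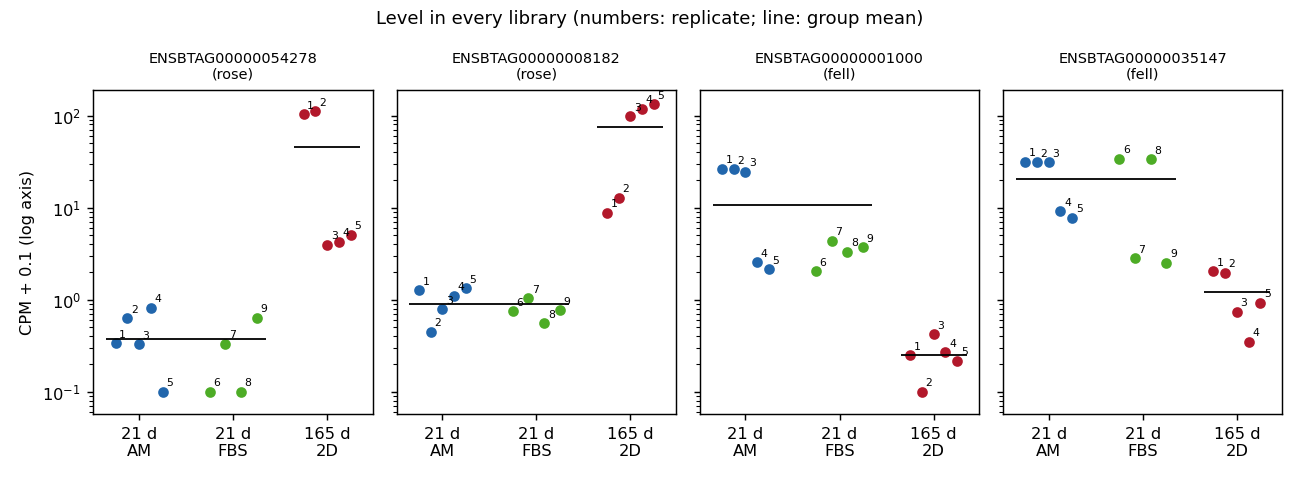
Level of the 2 IDs with the largest rise and the 2 with the largest fall in each of the 14 libraries, as CPM + 0.1 on a log axis, by time and tag. Points carry replicate numbers and horizontal lines are group means. The rising IDs are high in different libraries at 165 days (103 and 112 CPM in replicates 1 and 2 for the former, 98.5 to 132 CPM in replicates 3 to 5 for the latter), and the falling IDs are uneven at 21 days.

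In primary cells these 4 genes had unlike levels, here on a TMM scale of all 23 libraries. ENSBTAG00000054278 was at 0 to 0.123 CPM at 12 days and at 0 to 72.1 CPM at 50 days. ENSBTAG00000008182 was at 0.247 to 0.377 CPM at 12 days and at 4.97 to 65.0 CPM at 50 days. Both genes that rose in the line therefore had libraries above their 21-day levels among the older primary cells, where single libraries differed widely. ENSBTAG00000001000 was at 1.23 to 3.11 CPM at 12 days and 0.31 to 11.5 CPM at 50 days. ENSBTAG00000035147 reached no more than 0.37 CPM at 12 days and 3.10 CPM at 50 days, below most libraries of the 21-day line.

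Unevenness of this kind was common among the largest changes. Of the 28 genes that rose at least 8-fold, 7 had replicates 1 and 2 above replicates 3, 4 and 5 at 165 days by at least 4-fold, and 6 had them below by as much, 46.4% together, against 155 of all 10744 genes tested (1.44%). Of the 43 genes that fell at least 8-fold, 16 had replicates 1, 2, 3, 6 and 8 above replicates 4, 5, 7 and 9 at 21 days by at least 4-fold and 2 had them below, 41.9% together, against 234 of all genes (2.18%). A large mean fold can itself arise from a few high libraries, so these shares describe the genes and carry no test. Among genes present at 1 time alone, the filter on low counts also passed those in 5 of 9 early libraries. It did not pass those in only some of the late ones. Among the 139 genes that rose at least 4-fold, 114 showed no such division at 165 days. In the 4 fits without a set of libraries 25 of the 28 rises and 17 of the 43 falls of at least 8-fold kept their call.

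Called rises were most frequent among abundant genes and called falls in the group from 6.37 to 22.7 CPM. The genes tested were divided by mean level over the 14 libraries, 9 of them early, into 4 groups of 2686. Low counts give less power to call a change, so the numbers called may differ between groups for that reason alone. In the most abundant group, from 70.5 to 11936 CPM, 1249 genes rose and 575 fell. In the next group 821 rose and 856 fell. Between 6.37 and 22.7 CPM 554 rose and 1090 fell, and in the least abundant group 409 rose and 850 fell. With library totals alone the most abundant group held 770 rising and 899 falling genes and the least abundant 236 and 1132, so the balance in the most abundant group turned with the scaling, while it still held the most rising genes of the 4. Of the 43 falls of 8-fold or more 27 were in the least abundant group and 3 in the most abundant, while the 28 rises of that size were spread more evenly, with 9, 6, 8 and 5 from the least to the most abundant group.

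No gene by itself made up much of the shift in the transcript pool. Genes that rose held 44.2% ± 1.60 (SD, n = 9) of all counts in the early line, and 62.9% ± 1.75 (SD, n = 5) in the late line. Those that fell held 25.1% ± 1.54 early and 11.5% ± 1.28 late, and the 4340 genes that did not pass the test 30.5% ± 0.18 and 25.4% ± 0.53. The calls chose these genes, so the shares give the size of the shift and no test of it. Calls used TMM scaling whereas shares are of library totals, so genes without a call could still lose share. TMM factors were 0.837 to 0.922 at 165 days and 1.03 to 1.14 at 21 days. Between the group means 19.1% of counts lay in other genes. Of this gain 50% was carried by 92 of the 5706 genes that gained, and 50% of the loss by 315 of the 9969 that lost. No single gene gained more than 0.378 percentage points or lost more than 0.716. Of the 10 most abundant genes over the 14 libraries 8 rose, 1 fell and 1 did not pass the test. In the most abundant group of 2686 genes 46.5% rose and 21.4% fell. These calls, too, are relative to TMM scaling. The gene that did not pass went from 0.561% of counts at 21 days to 0.396% at 165 days. Log2 fold changes of the 10 ran from -0.68 to 0.98, and together they held 6.73% of counts at 21 days and 7.31% at 165 days.

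The late line spread its counts over fewer genes. The effective number of genes, the number of equally abundant genes that would give the same Shannon entropy, was at equal depth 1984 ± 175 (SD, n = 5) in the late line, compared with 2477 ± 165 (SD, n = 9) in the early line. It was lower in 5 of 5 late libraries, at 1777 to 2180 against 2234 to 2811 (two-sided exact permutation p = 0.0005, the lowest value possible over 2002 splits, adjusted p = 0.000749 over 3 library measures). Replicates 1 and 2 were the lowest, at 1827 and 1777. Without them the difference was -372 in place of -493 (two-sided exact permutation p = 0.00455, the lowest value possible over 220 splits). The number of genes with at least 1 count at equal depth was 13173 ± 39.9 (SD, n = 5) and 13339 ± 247 (SD, n = 9), a difference that did not pass the test (two-sided exact permutation p = 0.183). The 21-day libraries fell into ranges of 13046 to 13246 and 13506 to 13641 by the division named above. These splits count each library as independent, yet the libraries share a line and fell into sets, so the p-values may be too small.

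Fewer genes of the late line stood at a level found in primary cells. For each library of the line the share of the 10744 genes inside the range of the 9 primary libraries, from the lowest to the highest value over both the 5 tagged WJ and the 4 tagged BUC, was computed on a TMM scale of all 23. This share ran from 39.0% to 51.3% at 165 days, with a mean of 46.1% ± 5.17 (SD, n = 5), and from 55.5% to 61.3% at 21 days, with a mean of 58.0% ± 1.81 (SD, n = 9). It was lower in 5 of 5 late libraries than in any early one (two-sided exact permutation p = 0.0005, adjusted p = 0.000749). Here too the splits count each library as independent, so this p-value and those that follow may be too small. The lowest values, 42.3% and 39.0%, belonged to replicates 1 and 2 of the late line, and its other 3 libraries were at 48.6% to 51.3%. Without replicates 1 and 2 the difference was -8.32 percentage points in place of -11.9 (two-sided exact permutation p = 0.00455). Against the range of the 5 libraries tagged WJ alone, the name of the cells the line was made from, the mean share was 34.0% ± 4.26 (SD, n = 5) in late and 44.5% ± 1.44 (SD, n = 9) in early libraries, a difference of -10.4 percentage points (two-sided exact permutation p = 0.0005). With library totals alone and all 9 it was -5.11 percentage points (two-sided exact permutation p = 0.004). Genes left the primary range on both sides. A library at 165 days had 26.3% to 32.1% of genes above it and 22.4% to 28.8% below, against 20.04% to 22.8% and 18.4% to 22.1% at 21 days.

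By group means, 1904 of the 3033 genes that rose were inside the primary range at 21 days and 1145 at 165 days. Of the genes that rose 666 began below the primary range, and 418 moved from outside into it. Of the 3371 that fell 670 began above the primary range, 477 moved from outside into it, and 1883 ended below it. Over all genes tested 2741 left the range and 1139 entered it. A rise or fall of itself moves a gene toward or past an edge of the range, so these counts describe where the changes led and are no test.

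Almost no gene went from 0 counts in all libraries of 1 time to a mean of 1 CPM or more at the other. The rule is strict, since a few stray counts in any library exclude a gene. ENSBTAG00000001000, with 616 counts at 21 days and 8 at 165 days, was excluded in this way. So was ENSBTAG00000054278, with 18 and 1186. The rule therefore does not show how many genes were nearly silent at 1 time. A single gene had no count at 21 days while reaching an average of 1 CPM or more in the late line. It had 37, 15, 4, 2 and 1 counts in replicates 1 to 5 at 165 days, so that here too replicates 1 and 2 were the high ones, and it was chosen after its values were seen. The 59596329 counts at 21 days allow a pooled level of up to 0.0503 CPM for a gene with 0 counts, taking 3 counts as the limit, which covers counting error only. The opposite pattern, no count in 48158630 counts at 165 days and at least 1 CPM at 21 days, was found in 0 genes. Counts at a single time alone occurred in 149 of the 16094 genes at 165 days and 350 at 21 days. Their means were no more than 1.84 and 0.47 CPM, with medians of 0.0398 and 0.0415 CPM. The 21-day group had more libraries (9 against 5) and more counts, so more chances of a stray count, and the 2 numbers were not compared.

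**Figure D5:**
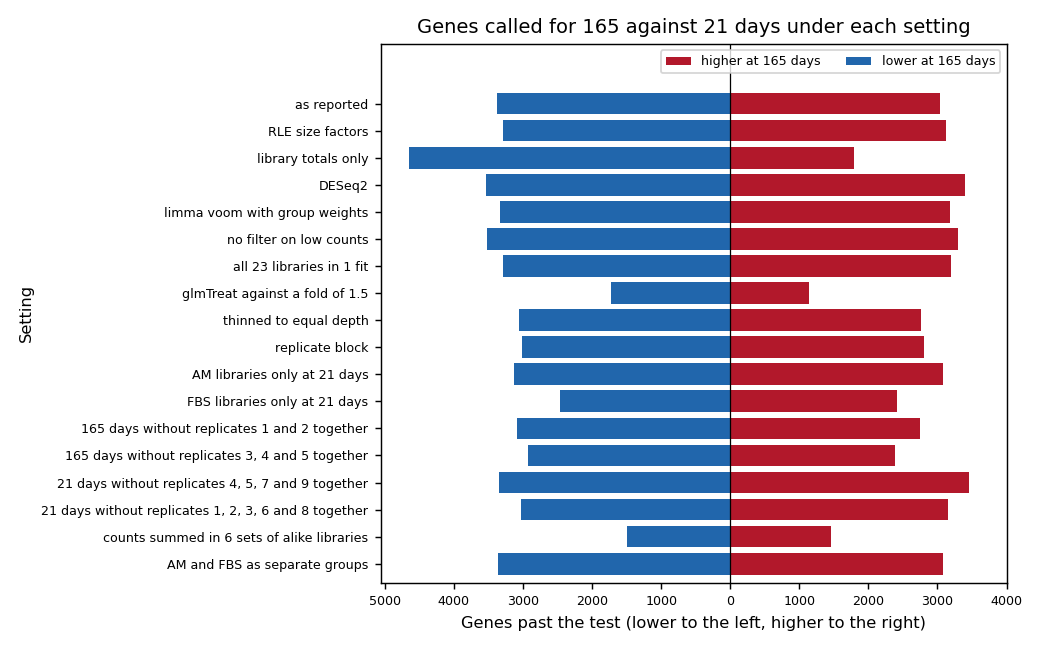
Number of genes called higher (red, to the right) and lower (blue, to the left) at 165 days under the reported fit and 17 other settings, on a linear axis that starts at 0 in the middle. The reported fit has 3033 and 3371; library totals alone give 1792 and 4648, and counts summed in 6 sets of libraries give 1454 and 1498.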

How the data were processed

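Raw counts per Ensembl gene were deposited by the authors as whole numbers, not normalized, with 1 column per library. The genome build was ARS-UCD1.2 and the tools named are STAR, HTSeq, cutadapt and DESeq, per the submitters' processing notes. Versions, annotation and handling of strand or molecular identifiers are not given, so overlapping genes or near-identical copies may share counts, and counts may not be independent molecules.

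The 14 libraries of the line were fitted with edgeR 4.0.16 in R 4.3.3 (estimateDisp, glmQLFit, glmQLFTest) with TMM scaling, filterByExpr and Benjamini-Hochberg adjustment at 0.05. The standard error of a log2 fold change was derived from the F statistic. CPM used TMM-scaled library sizes. Principal components, gaps between the groups and 4-fold divisions within a time used log2 CPM with a prior count of 2. Such a division compared means and also required that the 2 sides did not overlap. Thinning was without replacement with a fixed seed. Library measures were compared by two-sided exact permutation tests. The gene IDs given are the 2 largest rises and 2 largest falls among called genes that averaged 10 CPM or more in the higher group. The 44 planned gene lists, cell type markers included, could not be run without symbols. The comparison, lists and rules were chosen with earlier results of these data known.

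On simulated counts for this comparison over 10744 genes, the test recovered 69% of 100 genes changed by 1 and 99% of 100 changed by 2 on the log2 scale. Of 178 calls 10 were unchanged genes. The simulated libraries were independent and few genes changed, whereas the real libraries fell into sets and 59.6% of genes were called. Recovery and false calls in the real data may therefore differ. The biological coefficient of variation was 23.8% at 165 days and 27.3% at 21 days, 6.42% without replicates 1 and 2 at 165 days, and 15.3% and 18.8% in the 2 divisions of the 21-day libraries. No 2 libraries of a group were alike within counting noise (chi-square over its degrees of freedom 2.85 or more), so none was merged as a duplicate. Repeat libraries of 1 culture would also exceed counting noise, so this does not show that the libraries are independent. Alternatives used DESeq2 1.42.0 and limma 3.58.1 voom.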

Additional observations from a re-analysis of the deposited data

How the results depend on the processing

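Over 17 alternatives the number of genes called for 165 against 21 days lay between 2874 and 6943, and was within 1.5 times the reported 6404 in 15. Against a fold of 1.5 (glmTreat), 2874 were called, 1142 higher and 1732 lower, and with counts summed in 6 sets 2952, 1454 higher and 1498 lower, where fewer samples were fitted. With library totals alone 1792 were higher. Genes higher by at least 4-fold numbered 81 with library totals, 295 with DESeq2, 357 without a filter and 266 without replicates 4, 5, 7 and 9 at 21 days. Genes lower by at least 4-fold numbered 430, 364 and 405 with the former 3 settings, 123 with FBS libraries alone at 21 days and 782 without replicates 3, 4 and 5 at 165 days. DESeq2 tested 14337 genes and the unfiltered fit 15884, against 10744 in the reported fit. The causes of these differences were not tested. The 4 IDs kept direction and call in all settings, with adjusted p up to 0.0468.

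Leaving out each library gave 5957 to 6409 called genes, 2796 to 3079 higher and 3161 to 3330 lower, 127 to 153 and 206 to 312 by at least 4-fold, and 1784 to 1959 genes entirely above and 1875 to 2036 entirely below. Genes detected differed by -202 to -128, effective genes by -542 to -441 and the share in the primary range by -13.2 to -10.2 percentage points. The difference in genes detected was 205 without thinning, 32.2 without replicates 4, 5, 7 and 9 at 21 days, -413 without replicates 1, 2, 3, 6 and 8 and -223 with FBS libraries alone (the last 2 with exact permutation p = 0.00794).

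Titles give numbers 1 to 5 at both times, and the labels do not say whether equal numbers were paired. Deviations correlated above 0.1 in 1 of 5 pairs, at 0.199 for number 3. The divisions within each time also enter these deviations, so the correlations cannot settle whether the numbers pair the libraries. The main fit used no pairing. With the replicate number as a block 5832 genes were called, 2812 higher and 3020 lower, and the log2 fold changes of the 4 IDs were 6.20, 6.29, -6.02 and -4.38. With this block 193 genes were higher and 335 lower by at least 4-fold. Depth limits low genes: thinned to 3753231 counts, 9751 genes were tested and 5814 called.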
